A study of Mus musculus with 4 samples.

Results

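The genes described here mark T cells. They encode the CD3 chains Cd3d, Cd3e and Cd3g, the coreceptors Cd4, Cd8a and Cd8b1, the transcription factors Tcf7, Lef1 and Bcl11b, and the surface protein Thy1. They were taken by gene symbol from the unfiltered deposited table, and 10 of its 46603 genes are members, each with 1 Ensembl identifier. RNA was sequenced from 4 lung samples of C57BL/6 littermates 6 to 8 weeks old. The 2 WT samples carried the normal Ifnar1 gene (Ifnar1+/+) and the 2 SA samples carried the Ifnar1 S526A allele, which changes a serine of this type I interferon receptor chain to alanine. The mice of both genotypes were injected intravenously with 100 µl of conditioned medium from the mouse melanoma line B16F10, 3 times a week for 3 weeks. Mice without the medium were not analysed here, so every comparison is between genotypes under that treatment. The allele is in the germ line and the tissue is whole lung, so the T cell mRNAs are a small part of each library.

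The T cell receptor does not signal by itself. Its antigen-binding chains are carried to the cell surface by the CD3 chains and the zeta chain, whose cytoplasmic tails are phosphorylated by the kinase Lck when CD4 or CD8 binds the MHC molecule that presents the peptide. TCF-1, encoded by Tcf7, and LEF-1 are related DNA-binding factors that help to specify T cells in the thymus and are abundant in naive and memory T cells. Both are known to be lower in effector T cells. Bcl11b commits progenitors to the T lineage and is kept in mature T cells. Some members are also expressed outside T cells. Thy1 is found on fibroblasts and some lymphatic cells, Cd4 and Cd8a on subsets of dendritic cells, and TCF-1 and LEF-1 carry Wnt signals in epithelium and mesenchyme.

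Promoter windows of 4 members are shown because these genes stood on opposite sides of the comparison below, with Cd3d and Cd3g higher and Tcf7 and Lef1 lower in the SA libraries. They come from RefSeq on GRCm38.p6 and run from 250 bases before to 50 bases after a transcription start, 5′ to 3′ on the strand of the gene. Of the 10 members, 7 have a window, and where a gene has several, the window nearest to the gene start in GENCODE M21 was taken. Capitals mark matches on either strand to CTTTGA or CTTTGT (a TCF/LEF core), TGTGGT (a RUNX core), CAGGTG (an E-box) or GAAA, any 2 bases and GAAA (an interferon response element), and no match overlaps another. The windows are chr9:44981536-44981835 on the plus strand for Cd3d, chr9:44980382-44980681 on the minus strand for Cd3g, chr11:52282965-52283264 on the minus strand for Tcf7 and chr3:131110073-131110372 on the plus strand for Lef1.
Cd3d: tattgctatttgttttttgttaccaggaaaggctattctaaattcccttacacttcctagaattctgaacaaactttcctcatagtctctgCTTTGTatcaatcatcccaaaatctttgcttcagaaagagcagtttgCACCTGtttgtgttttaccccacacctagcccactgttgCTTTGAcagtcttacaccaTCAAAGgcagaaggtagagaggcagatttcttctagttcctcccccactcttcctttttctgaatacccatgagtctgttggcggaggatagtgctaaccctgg
Cd3g: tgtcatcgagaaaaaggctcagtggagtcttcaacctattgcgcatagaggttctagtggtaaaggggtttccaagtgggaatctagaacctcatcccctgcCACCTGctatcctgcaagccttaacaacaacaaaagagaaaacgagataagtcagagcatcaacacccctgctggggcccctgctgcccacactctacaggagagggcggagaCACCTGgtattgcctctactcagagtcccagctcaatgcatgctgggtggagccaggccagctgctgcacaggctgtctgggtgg
Tcf7: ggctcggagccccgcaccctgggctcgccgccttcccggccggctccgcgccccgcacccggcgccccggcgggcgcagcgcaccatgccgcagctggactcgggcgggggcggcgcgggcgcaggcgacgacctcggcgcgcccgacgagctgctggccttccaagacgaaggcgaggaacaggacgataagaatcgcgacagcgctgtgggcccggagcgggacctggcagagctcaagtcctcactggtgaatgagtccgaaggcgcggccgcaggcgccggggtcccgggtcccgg
Lef1: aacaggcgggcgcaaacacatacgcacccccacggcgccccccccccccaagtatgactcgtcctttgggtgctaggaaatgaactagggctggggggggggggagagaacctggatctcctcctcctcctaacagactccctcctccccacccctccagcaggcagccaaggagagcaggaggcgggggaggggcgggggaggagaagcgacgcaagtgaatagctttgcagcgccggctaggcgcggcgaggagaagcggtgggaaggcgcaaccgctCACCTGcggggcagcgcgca

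Cd3d and Cd3g lie head to head on chromosome 9, with their starts 1355 bases apart. The Cd3d window held 3 TCF/LEF cores and 1 E-box, and the Cd3g window held 2 E-boxes. The Lef1 window held 1 E-box and the Tcf7 window had no match to any of these motifs, as did that of Cd8a. Of all 32851 promoter windows in the table, 31.2% held a TCF/LEF core, 20.2% an E-box, 16.8% a RUNX core and 3.44% an interferon response element, and neither of the last 2 was in any of the 7 member windows. A match is a run of letters and not a known binding site. The windows also differed in base composition. G and C made up 76.3% of the Tcf7 window and 67.3% of the Lef1 window, against 42.3% in Cd3d, 46.7% in Cd8a, 43.0% in Bcl11b, 54.0% in Cd3g and 56.7% in Cd3e. The median of all windows was 52.7%, and Tcf7 and Lef1 were above the upper quartile of 61.7%. CpG dinucleotides numbered 45 in the Tcf7 window and 21 in the Lef1 window, and from 1 to 9 in the other 5. Tcf7 has 2 windows and Lef1 has 4, and these values belong only to the one taken. The Tcf7 window holds an ATG before its start, followed by an open reading frame to the window's end. Part of it may thus be coding sequence of a longer transcript, and its composition and lack of matches may not be those of the main promoter.

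The libraries held 27381916 to 38378936 gene reads, so 1 read is worth 0.0261 to 0.0365 CPM (reads scaled to a common library total) and the detection floor of 3 reads lies at 0.0782 to 0.110 CPM. Values are log2 CPM as deposited. Differences on that scale are SA minus WT, each given with its standard error (SE) from limma. The fit took the 15996 genes with a mean of at least 0 log2 CPM over the 4 libraries, and 9 of the 10 members passed that cut. The exception was Cd3e, whose mean was -0.08. Lung identity was plain in every library, with the summed level of 8 epithelial markers from 42509 to 51556 CPM. Striated muscle genes differed between the groups and within them, at a summed 1031 and 1530 CPM in WT and 2641 and 4012 CPM in SA. The first principal component (72.1% of variance) placed WT 2 at -4.4, nearer to SA 1 at 14.2 than to WT 1 at -50.6, with SA 2 at 40.7.

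The T cell genes were measured on few reads. Scaled to exon length (RPKM, the CPM per kilobase of exon), Tcf7 stood highest with a mean of 5.04 over the 4 libraries (4.27 to 5.84), followed by Thy1 with 3.04 (2.14 to 3.90), and these ranges did not overlap. Cd8b1 (1.37), Cd3d (1.14), Cd3g (1.00), Cd4 (0.770) and Cd8a (0.516) formed a run in which each gene's range over the libraries overlapped that of the next. Bcl11b (0.419) and Lef1 (0.399) overlapped as well, and Cd3e was lowest at 0.229, with a range of 0.204 to 0.256 that lay under those of all other members. Lengths are the union of annotated exons in GENCODE M21, which lowers the value of genes with long, seldom used exons, such as Lef1 with 8788 bases of exon.

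None of the T cell identity genes passed the test between genotypes, but their levels did not move as a block. By limma, 0 of the 9 fitted members had an adjusted p under 0.05 (Benjamini-Hochberg over 15996 genes), against 0.300% of all genes fitted. Of the 9, 5 had an unadjusted p under 0.05. These were Cd3g, Cd8a, Cd8b1 and Thy1, higher in SA, where the share of all genes is 16.8%, and Tcf7, lower in SA, where it is 9.56%. The groups did not overlap for 6 fitted members that were higher in SA and 2 that were lower, together 8 of 9, and the shares of all genes fitted were 38.1% and 21.7%, together 59.8%. Among all genes fitted 26.4% reached an unadjusted p under 0.05, so a small p or separate groups do not set a gene apart in these libraries. With no filter on low values 2 members passed upward and 1 downward, Cd3g, Thy1 and Tcf7, where 3.21% and 1.54% of all genes did (4.75% in all). The same 3 passed in a fit with the replicate number as a block, where the shares were 14.5% and 7.57% (22.0% in all). The median difference was 0.52 over the 9 fitted members and 0.07 over all genes fitted. In bulk lung, fewer T cells and less of an mRNA per T cell cannot be told apart.

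**Figure D1:**
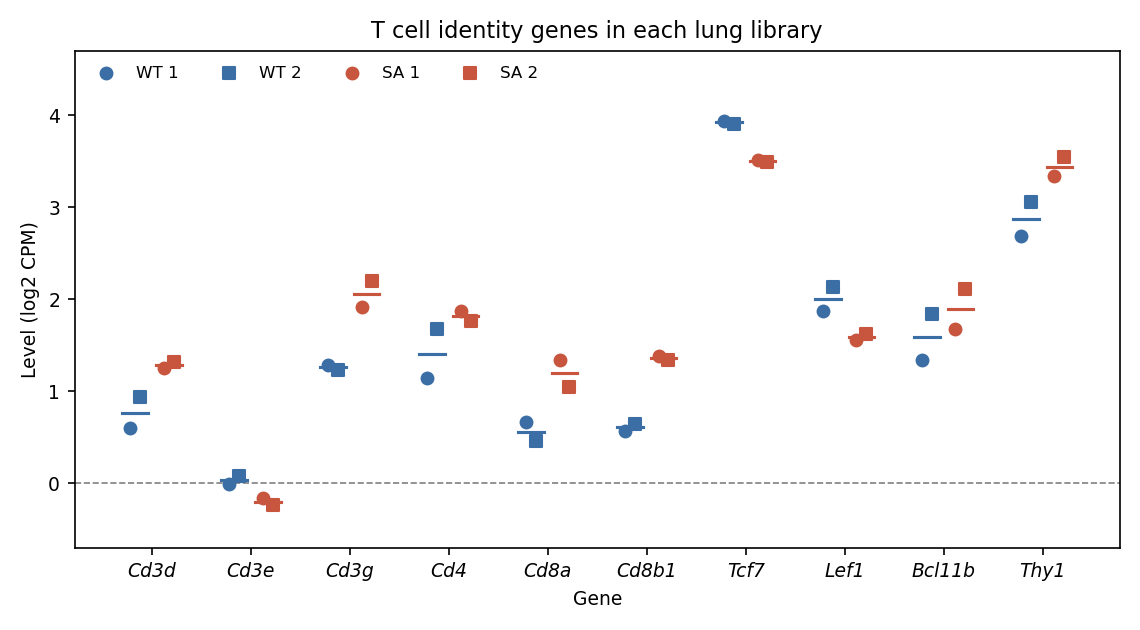
Level of each of the 10 genes in log2 CPM (y axis) in the 4 lung libraries; circles are replicate 1, squares replicate 2, short bars the group means (n = 2), and the dashed line the cut of 0 log2 CPM used for the fit. Cd3d, Cd3g, Cd4, Cd8a, Cd8b1 and Thy1 are higher in both SA libraries, Tcf7, Lef1 and Cd3e are lower, and Bcl11b overlaps.

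Among the CD3 chains, Cd3g (ENSMUSG00000002033, chromosome 9, 44969572 to 44980431, minus strand) had the largest difference of all members. WT 1 and WT 2 stood at 1.28 and 1.24 log2 CPM (74 and 74 reads), and SA 1 and SA 2 at 1.92 and 2.20 (103 and 176 reads). Both SA libraries lay above both WT libraries, by a gap of 0.64. The difference was 0.80 ± 0.17 (SE), a 1.74-fold level, and its 95% interval ran from 0.33 to 1.27 (adjusted p = 0.090, limma). Its neighbour Cd3d (chromosome 9, 44981786 to 44987339, plus strand), the delta chain that pairs with epsilon, had levels of 0.60, 0.93, 1.26 and 1.32 in the same order, on 46, 60, 65 and 95 reads. Its groups were also separate, and the difference of 0.52 ± 0.21 had an adjusted p of 0.21 (limma).

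Cd3e, the chain that pairs with either delta or gamma, did not follow the other CD3 chains. It lies on the minus strand of chromosome 9 from 44998740 to 45009627. WT 1 and WT 2 stood at -0.01 and 0.08 log2 CPM (30 and 33 reads), and SA 1 and SA 2 at -0.16 and -0.24 (24 and 32 reads). Both SA libraries were slightly lower, with a difference of -0.24. Summed over each group and scaled to the gene reads, the SA to WT ratio was 0.842, with an exact 95% counting interval of 0.576 to 1.23, so no difference was detectable at this depth. The same kind of interval was 1.46 to 2.19 for Cd3g and 1.11 to 1.84 for Cd3d. These intervals cover counting error only and not the spread between samples. With the cut lowered to a mean of -1 log2 CPM, Cd3e entered the limma fit with an adjusted p of 0.55. The ratio of Cd3g to Cd3e within a library was 1.29 and 1.15 on the log2 scale in WT and 2.08 and 2.44 in SA. In GENCODE M21 the antisense gene Gm48719 shares 135 exon bases with Cd3e. The sources used here do not give the strand setting of the read counting.

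The CD8 chains were higher in both SA libraries. Cd8b1, the beta chain of the coreceptor of MHC class I-restricted T cells, lies on chromosome 6 from 71322788 to 71337494. WT 1 and WT 2 stood at 0.57 and 0.65 log2 CPM (45 and 49 reads), and SA 1 and SA 2 at 1.38 and 1.35 (71 and 97 reads). The groups were separated by 0.70, the widest gap of any member, and the replicates of each group differed by at most 0.07. The difference was 0.76 ± 0.18 (SE; adjusted p = 0.099, limma). Cd8a, the alpha chain, on chromosome 6 from 71373427 to 71379173, was at 0.66, 0.46, 1.34 and 1.05 in the same order, on 48, 43, 69 and 79 reads. Its difference was 0.64 ± 0.22 (adjusted p = 0.17, limma). The alpha chain can also pair with itself on cells that lack the beta chain. The log2 ratio of Cd8a to Cd8b1 was 0.09 and -0.19 in WT and -0.04 and -0.29 in SA, and the groups overlapped.

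Cd4, the coreceptor of MHC class II-restricted T cells, differed less clearly. It lies on the minus strand of chromosome 6 from 124864692 to 124888221. WT 1 and WT 2 stood at 1.14 and 1.68 log2 CPM (67 and 101 reads), and SA 1 and SA 2 at 1.88 and 1.77 (100 and 130 reads). The gap between the groups was 0.08, while the WT libraries were 0.54 apart. The difference was 0.41 ± 0.24 (adjusted p = 0.34, limma), and it was 0.14 without WT 1 and 0.68 without WT 2. The log2 ratio of Cd4 to Cd8a was 0.48 and 1.22 in WT and 0.53 and 0.72 in SA, so no shift between the coreceptors was detectable.

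Tcf7 and Lef1 were lower in both SA libraries, opposite to most receptor genes. Tcf7 (ENSMUSG00000000782) lies on the minus strand of chromosome 11 from 52252371 to 52283014 and is the member with the most reads. WT 1 and WT 2 stood at 3.94 and 3.90 log2 CPM (469 and 473 reads), and SA 1 and SA 2 at 3.52 and 3.49 (313 and 430 reads). Replicates of a genotype differed by at most 0.04 and the groups by at least 0.39. The difference was -0.42 ± 0.08 (SE), a level 0.748 times that of WT, and its 95% interval ran from -0.64 to -0.19. The adjusted p of 0.083 (limma) was the lowest of the members. The counting interval of the SA to WT ratio was 0.677 to 0.823. Without any single library the difference stayed between -0.44 and -0.40.

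Lef1 (chromosome 3, 131110471 to 131224356, plus strand) stood at 1.88 and 2.13 log2 CPM in WT 1 and WT 2 (112 and 138 reads) and at 1.56 and 1.63 in SA 1 and SA 2 (80 and 118 reads). The groups were separate by 0.25, and the difference of -0.41 ± 0.17 (adjusted p = 0.21, limma) was close to that of Tcf7. The ratio of Tcf7 to Lef1 overlapped between the groups, with means of 1.92 ± 0.20 (SD, n = 2) in WT and 1.91 ± 0.07 in SA on the log2 scale. Antisense genes lie across both loci. A630014C17Rik, opposite to Tcf7 with no shared exon bases, had 61, 43, 40 and 39 reads, and Gm43352, which shares 1208 exon bases with Lef1, had 1 to 6 reads.

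Bcl11b and Thy1 did not side with Tcf7 and Lef1. Bcl11b (chromosome 12, 107910403 to 108003602, minus strand) stood at 1.34 and 1.84 log2 CPM in WT 1 and WT 2 (77 and 113 reads) and at 1.68 and 2.12 in SA 1 and SA 2 (87 and 166 reads). It was the only member whose groups overlapped. The difference was 0.31 ± 0.27 (adjusted p = 0.50, limma), with steps of 0.50 and 0.44 from replicate 1 to replicate 2 within WT and SA. It was 0.05 without WT 1, 0.56 without WT 2, 0.53 without SA 1 and 0.08 without SA 2. Thy1 (chromosome 9, 44043384 to 44048579, plus strand), a small lipid-anchored glycoprotein, was at 2.68, 3.06, 3.34 and 3.55 in WT 1, WT 2, SA 1 and SA 2, on 196, 263, 276 and 448 reads. Both SA libraries were above both WT libraries. The difference was 0.57 ± 0.17 (adjusted p = 0.14, limma).

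**Figure D2:**
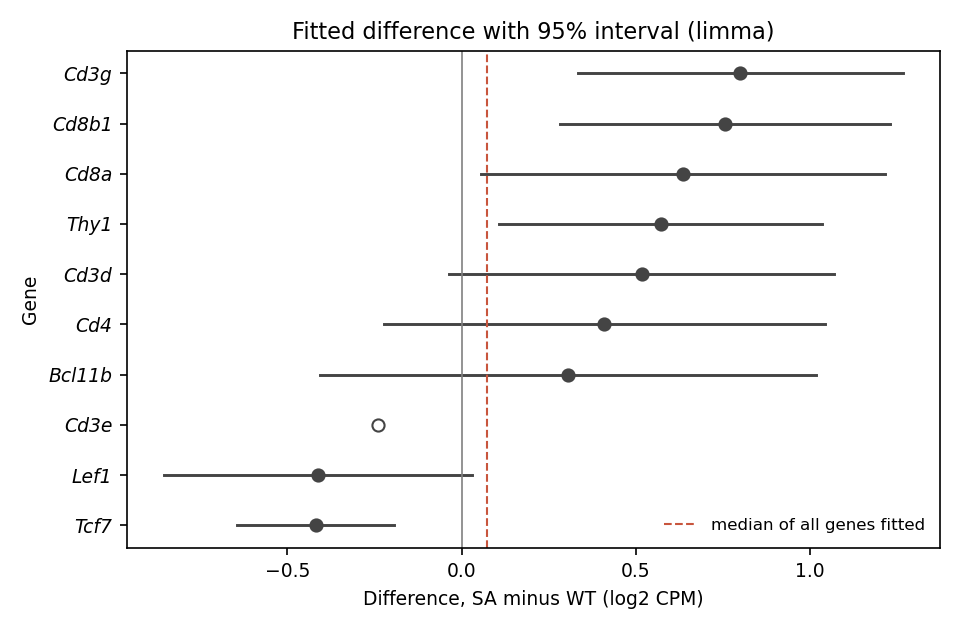
Difference SA minus WT in log2 CPM (x axis) of the 9 fitted genes with the 95% interval of the limma fit; the open circle is Cd3e, which was under the cut and has no interval, and the dashed line is the median of all genes fitted (0.07). The intervals of Cd3g, Cd8a, Cd8b1, Thy1 and Tcf7 do not reach 0, although none of these genes has an adjusted p under 0.05.

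Ratios within a library set the naive factors beside the receptor without any scaling between libraries. Relative to the mean log2 level of Cd3d, Cd3e and Cd3g, Tcf7 stood at 3.31 and 3.15 in the WT libraries and at 2.51 and 2.40 in the SA libraries. Lef1 relative to the same mean was at 1.25, 1.38, 0.55 and 0.53. Both ratios were separate between the groups, with differences of -0.78 and -0.77, or 0.583 and 0.585 times the WT ratio. Relative to Cd3d and Cd3g alone, the chains higher in SA, the differences were -1.08 for Tcf7 and -1.07 for Lef1. Cd3e itself differed by -0.24, Tcf7 by -0.42 and Lef1 by -0.41. The contrast is therefore smaller against Cd3e alone, and its size depends on the CD3 chains used. Bcl11b over the CD3 mean overlapped between the groups, at 0.71 and 1.09 in WT and 0.67 and 1.02 in SA. With 2 libraries in each group, the exact two-sided permutation test cannot give a p under 0.333, so these ratios are descriptions.

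**Figure D3:**
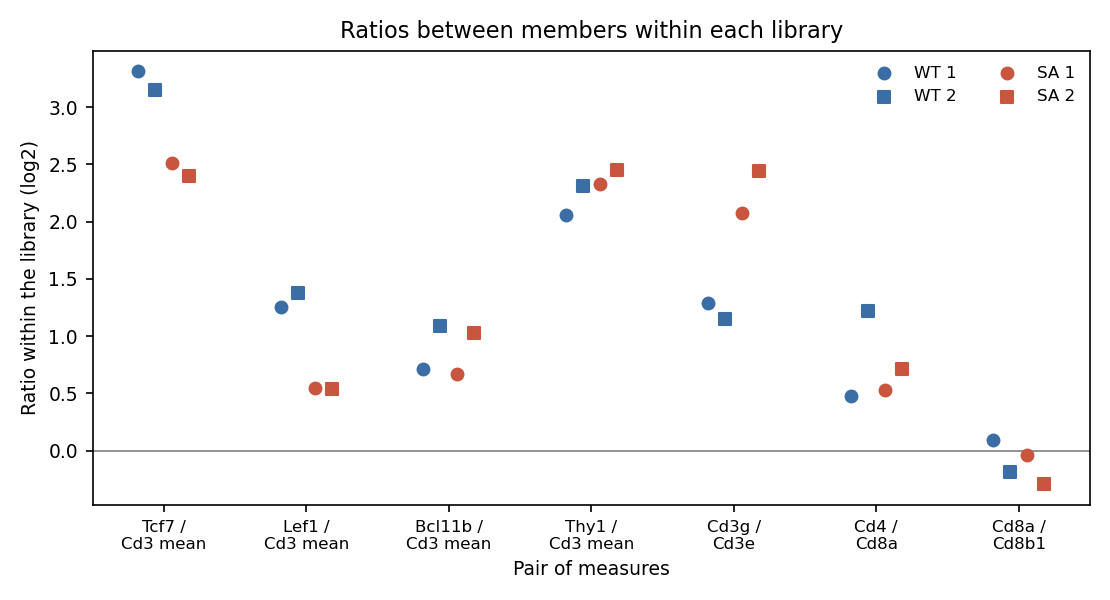
Log2 ratios between genes within each library (y axis); the CD3 mean is the mean log2 CPM of Cd3d, Cd3e and Cd3g, circles are replicate 1 and squares replicate 2. Tcf7 and Lef1 over the CD3 mean are lower in both SA libraries and Cd3g over Cd3e is higher, while Bcl11b over the CD3 mean, Cd4 over Cd8a and Cd8a over Cd8b1 overlap.

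Other genes of the T cell receptor were higher in SA without passing the test. All 5 measured genes of the list of receptor constant regions and the zeta chain Cd247 were higher, against 62.0% of all genes fitted, with a median difference of 0.48, and limma called 0 of the 5 over all genes. Without adjustment, 2 had p under 0.05, both higher, where the share of all genes fitted was 16.8%. Trdc, the constant region of the delta chain of gamma-delta T cells, stood at -0.98 and -0.05 log2 CPM in WT 1 and WT 2 (15 and 30 reads) and at 1.36 and 1.39 in SA 1 and SA 2 (70 and 100 reads). Its difference of 1.89 ± 0.37 (SE; adjusted p = 0.081, limma) exceeded that of every member. Trac, the alpha chain constant region, differed by 0.48 ± 0.17, Trbc1 by 0.53 ± 0.27 and Cd247 by 0.30 ± 0.20. Trbc1 differed by 0.24 without WT 1 and 0.82 without WT 2, and Cd247 by 0.14 without SA 2, 0.20 without WT 2 and 0.46 without SA 1. Reads of Trbc1 can be shared with its close copy Trbc2, which overlapped between the groups with a difference of 0.16 ± 0.22 (0.40 without WT 1 and -0.07 without WT 2). The 3 gamma chain constant genes on the list were not analysed here.

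Genes that act downstream of the receptor were divided. Of 22 signalling genes 19 were fitted, 12 higher and 7 lower in SA with a median of 0.14, and limma called 0 over all genes. Without adjustment, 3 higher genes and 1 lower gene had p under 0.05, where the shares of all genes fitted were 16.8% and 9.56%. At any p, 62.0% of all genes fitted were higher, so these counts do not set the list apart. The adaptor Lat, the kinase Lck and protein kinase C theta (Prkcq) differed by 0.57 ± 0.17, 0.40 ± 0.14 and 0.42 ± 0.08. Prkcq had 451 to 791 reads, against 79 to 161 for Lat and 105 to 182 for Lck, before any scaling to length. The part of cells other than T cells in the higher Prkcq was not tested. Fyn, a kinase that many cell types express, differed by -0.26 ± 0.07. The median of this list was 0.01 with median centring and -0.08 with quantile normalization.

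The effector genes were mixed in size, with granzyme genes higher and perforin overlapping. The activation and effector list had 14 of 20 genes fitted, 12 higher and 2 lower with a median of 0.44, and limma called 0 over all genes. Without adjustment, 6 had p under 0.05, all higher, where the share of all genes fitted was 16.8%. At any p, 62.0% of all genes fitted were higher. Gzmb, the serine protease granzyme B, was at 0.57 and 0.32 log2 CPM in WT and 1.89 and 1.95 in SA, a difference of 1.48 ± 0.19 (adjusted p = 0.053, limma). The chemokine gene Ccl5 differed by 0.98 ± 0.15, the homing receptor gene Cxcr6 by 0.96 ± 0.21 and Gzma by 0.84 ± 0.15. Prf1, which encodes perforin and was picked after its values were seen, differed by 0.09 ± 0.23, with 97 and 78 reads in WT and 93 and 100 in SA. Natural killer cells express these genes too. Of the list of NK cell and innate lymphoid markers, 5 of 7 fitted genes were higher and 2 lower (median 0.16, and -0.04 with quantile normalization), with 0 called by limma. Without adjustment, 2 had p under 0.05, both higher, beside the same 16.8% of all genes fitted. Its summed level was 213 and 214 CPM in WT and 206 and 188 CPM in SA, mostly from Rora, which is not specific to these cells. Ncr1, which encodes the NK receptor NKp46, was at 20 and 23 reads in WT and 51 and 60 in SA, a difference of 1.29 ± 0.24 (adjusted p = 0.077, limma), and Klrk1 differed by 0.69 ± 0.19. The 2 lower genes were Rora, which differed by -0.17 ± 0.07, and Il1rl1, by -0.41 ± 0.19 (-0.20 without WT 2). The part of NK cells in the higher effector genes was not tested.

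Among the subset factors, 9 of 13 genes were fitted, 6 higher and 3 lower with a median of 0.27, and limma called 0. The median was -0.09 without WT 1. Without adjustment, 3 had p under 0.05, all higher, where the share of all genes fitted was 16.8%. At any p, 62.0% of all genes fitted were higher. Ikzf2, which encodes Helios, differed by 0.87 ± 0.12, Gata3, which directs Th2 cells, by 0.75 ± 0.19 and Tox by 0.33 ± 0.22. Ikzf2 had 315 to 823 reads, against 74 to 176 for Cd3g, before any scaling to length. The part of cells other than T cells in these differences was not tested. Foxp3, the factor of regulatory T cells, was named after its values were seen. It was under the cut, at 13 and 17 reads in WT and 8 and 12 in SA.

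The naive T cell list held genes on both sides. Of its 13 genes 9 were lower and 4 higher in SA, with a median of -0.06, and limma called 0. Without adjustment, 4 had p under 0.05, all lower, where the share of all genes fitted was 9.56%. At any p, 62.0% of all genes fitted were higher. The lower genes with the smallest p were Klf2 (-0.91 ± 0.10, adjusted p = 0.053), Bach2 (-0.56 ± 0.09, adjusted p = 0.061), S1pr1 (-0.66 ± 0.12, adjusted p = 0.075) and Foxp1 (-0.18 ± 0.06, adjusted p = 0.14), all by limma. Bach2 restrains effector differentiation and Klf2 drives S1pr1, the receptor that lets T cells leave lymph nodes. Klf2 and S1pr1 are also strong endothelial genes. S1pr1 stood at 9.01 to 9.82 log2 CPM, far above any T cell receptor gene, and the 7 lung endothelial markers were all lower in SA, at a summed 3850 and 3343 CPM in WT and 2780 and 2461 CPM in SA. The homing receptor gene Ccr7, picked after its values were seen, differed by -0.02.

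Genes of other cells that use TCF-1 and LEF-1 did not all lie on the same side. The list of TCF family genes and Wnt targets had 10 of 12 genes lower with a median of -0.15, and limma called 0. Without adjustment, 3 had p under 0.05, all lower, where the share of all genes fitted was 9.56%. At any p, 62.0% of all genes fitted were higher. Nkd1 differed by -0.44 ± 0.07, Apcdd1 by -0.41 ± 0.10 and Znrf3 by -0.34 ± 0.09, all of them Wnt feedback inhibitors, and the related factor gene Tcf7l1 by -0.43 ± 0.21 (-0.28 without WT 2). Summed fibroblast markers were at 1577 and 1696 CPM in WT and 1317 and 1448 CPM in SA, with 5 of the 8 genes lower and 3 higher. Col1a1, Pdgfrb, Col3a1 and Pdgfra, which fibroblasts or pericytes express, differed by -0.61, -0.61, -0.45 and -0.47. Their part in the lower Tcf7 and Lef1 was not tested. Lum and Dcn, the other way round, differed by 1.23 and 0.42 and were picked after their values were seen. Lum differed by 0.75 without WT 1 and 0.72 without SA 2, and Dcn by 0.12 without WT 1, 0.71 without WT 2 and 0.24 without SA 2. Lymphatic endothelial markers, another place of Thy1 expression, summed to 1270 and 1039 CPM in WT and 920 and 736 CPM in SA. Most of that sum was Lyve1, which differed by -0.62. Of the 5 genes fitted 3 were lower, among them Flt4 (-0.40 ± 0.10). The other 2, Mmrn1 (0.17) and Prox1 (0.31), were higher, and the median of the list was -0.09. Their part in the higher Thy1 was not tested.

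**Figure D4:**
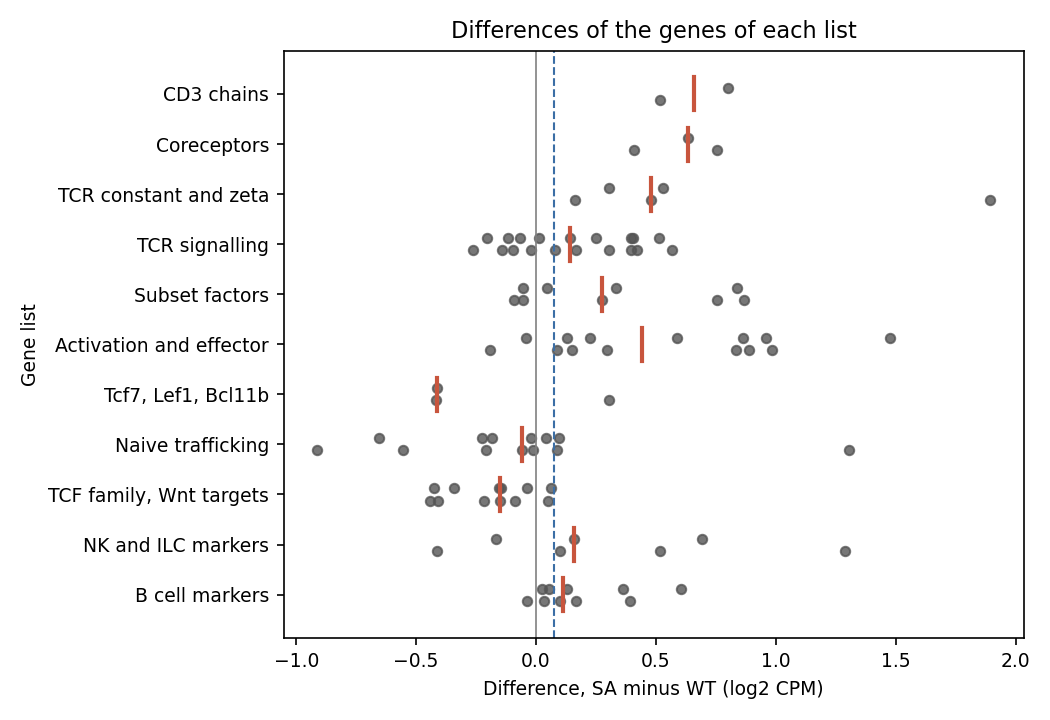
Difference SA minus WT in log2 CPM (x axis) of each fitted gene of 11 lists (points), with the list median as a red bar, 0 as a grey line and the median of all genes fitted (0.07) as a blue dashed line. Receptor and effector genes lie mostly to the right, Trdc and Gzmb farthest, while Tcf7, Lef1 and most Wnt targets lie to the left.

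Markers of thymus, B cells and lymph node stroma were examined because such tissue could carry T cells into a lung sample. Of 12 thymus markers, Ptcra, the pre-T cell receptor chain, had 0 reads in every library, and Rag1, Rag2 and Dntt had at most 3. The summed level of the list was 16.4 and 19.7 CPM in WT and 17.7 and 27.5 CPM in SA, mostly from Cd1d1, which many cells express. Of the 12 markers, 4 were fitted, 3 higher and 1 lower in SA with a median of 0.27, and limma called 0. Without adjustment, 1 had p under 0.05, higher, where the share of all genes fitted was 16.8%. At any p, 62.0% of all genes fitted were higher. Tbata, at 29 and 58 reads in WT and 86 and 148 in SA, differed by 1.39 ± 0.37 (adjusted p = 0.12, limma), or by 0.92 without WT 1. Ccr9 differed by 0.41 ± 0.30 (0.09 without WT 1), Cd1d1 by 0.14 ± 0.37 and Ccl25 by -0.31 ± 0.33. B cell markers summed to 65.3 and 123 CPM in the WT libraries and to 93.0 and 110 CPM in the SA libraries. All 10 overlapped between the groups, while 59.8% of all genes fitted did not overlap. Cxcl13, a chemokine of lymphoid follicles, had 69 and 878 reads in the WT libraries and 323 and 494 in the SA libraries. Chst4, the only other stroma marker fitted, had 485 and 382 reads in the WT libraries and 396 and 556 in the SA libraries. Ccl19 had 0 reads in all 4 libraries. With reads of Cxcl13 and Chst4 present, that 0 does not show that such stroma was absent. WT 1 was thus the library lowest in B cell genes, and the lowest in Cd3d, Cd4, Cd8b1, Bcl11b and Thy1, but it was not the lowest in Tcf7, Lef1, Cd3g or Cd8a. Replicate 2 exceeded replicate 1 for 7 of the 10 members within WT and for 5 within SA. Type I interferon induced genes, measured in the same libraries, had 9 of 16 past the threshold upward by limma, with a median of 1.53. The share of all genes fitted was 0.163%.

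The 5 genes whose centred profile over the 4 libraries was nearest to the mean of the CD3 chains were D930015E06Rik, Scrn2, Rufy3, Lztfl1 and the pseudogene Vdac3-ps1, at root mean square distances of 0.006 to 0.014 log2 units. Their differences were 0.33 to 0.35. With 4 libraries many profiles are alike, and 1549 of the 15994 genes compared lay within 0.1 log2 units.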

How the data were processed

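Ribosomal RNA was depleted and stranded total RNA libraries were made, per the labels' protocols. The submitters' processing notes name Subread, featureCounts, limma and GRCm38, with no versions. The authors deposited log2 values in an unfiltered (46603 genes) and a filtered table (12850, holding 5 members). Each value is the log2 CPM of a read count plus 0.5, with no further scaling, and reversing the formula returned whole reads for 100.0% of genes within 0.001 read. Repeated identifiers held equal values and were kept once.

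Genotypes were compared with limma 3.58.1 in R 4.3.3, with genotype as the only term, a mean-variance trend, two-sided tests and Benjamini-Hochberg adjustment over 15996 genes with a mean of at least 0 log2 CPM (2 residual and 2.42 prior degrees of freedom). The code was tested on simulated data. The labels identify no separate animals, so p-values cover only spread among these samples, which may be technical.

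The members and 22 gene lists were chosen with earlier results of these data known. Named were all members, up to 4 genes of lowest p per list described and the 5 nearest profiles, with others marked as picked later. Trbc2, Ptcra, Rag1, Rag2, Dntt, Ccl19 and the antisense genes were named outside this rule without such a mark. Some genes of the lists are not reported here by name. Promoters came from RefSeq (GRCm38.p6), exons from GENCODE M21. Alternatives covered the low-value filter, scaling, pseudocount, variance model, replicate block and each library left out. Other computing used Python 3.11.15 with pandas 2.3.3, scipy 1.17.1, numpy 2.4.6 and, for plots, matplotlib 3.10.9.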

Additional observations from a re-analysis of the deposited data

How the results depend on the processing

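Depth limits these genes: 8 of the 10 members had under 200 reads in every library. No member changed sign under the 15 alternatives that could fit it, and the differences were 0.55 to 0.94 for Cd3g, 0.50 to 0.79 for Cd8b1, -0.59 to -0.39 for Tcf7, -0.66 to -0.29 for Lef1 and 0.05 to 0.56 for Bcl11b. Median centring lowered every difference by 0.13 and quantile normalization did so by a varying amount. The deposited filter left 5 members, Cd4, Tcf7, Lef1, Bcl11b and Thy1, and held none of the CD3 and CD8 genes. A cut at a mean of 1 left 7. Cd3e could be fitted only with a cut at -1 or with none.

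The number of genes past the threshold, 26 higher and 22 lower in SA, was not well determined. It was 210 and 393 with median centring, 114 and 170 with quantile normalization, 361 and 281 with robust variances, 1 and 0 without the trend, and 20 and 10 with voom on the recovered reads. For the 166 fitted genes of the other lists, 10 passed upward and 0 downward, against 19 and 5 with centring, 21 and 5 with robust variances, 0 upward without the trend and 1 downward with quantile normalization. In these fits 0 members passed. Leaving out 1 library gave 0 to 5 genes higher and 0 lower, 0 other list genes and 0 members either way. The members' median, 0.52, was 0.31 in the filtered table, 0.27 with quantile normalization and 0.35 to 0.68 without a library.

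With no low-value filter, 1496 genes passed upward (3.21%) and 717 downward (1.54%), with 39 and 17 of the other list genes. There 2 members passed upward, Cd3g (0.80, adjusted p = 0.021, limma) and Thy1 (0.57, adjusted p = 0.035), and 1 downward, Tcf7 (-0.42, adjusted p = 0.049). The replicate numbers were given as a block as well. Nothing in the labels says that a number marks a shared litter or day, and the within-group deviations of equal numbers had a correlation of 0.53 over genes. With the replicate block 2312 genes passed upward (14.5%) and 1211 downward (7.57%), with 43 and 22 of the other list genes. The same 2 members, Cd3g (0.80, adjusted p = 0.034) and Thy1 (0.57, adjusted p = 0.023), passed upward, and 1 downward, Tcf7 (-0.42, adjusted p = 0.030). The causes of these shifts were not tested.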
